A study of Mus musculus with 9 samples.

Results

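Peaks of open chromatin that gained signal with both hairpins against Med1 were taken from an ATAC-seq table of D2A1-d cells. ATAC-seq measures how often a transposase inserts sequencing adapters into DNA, which it does mainly where chromatin is open. D2A1-d is labelled as a murine breast carcinoma line of wild-type genotype, with no further treatment. All cells were transduced, either with a non-targeting control (NTC, n = 3), with the hairpin shMed1 #2 (n = 3) or with shMed1 #4 (n = 3), and the libraries of a group are labelled as biological replicates. By its title, the series belongs to work on MED4, another Mediator subunit, in dormancy of breast cancer metastases. A peak was a member when its mean over the 9 libraries was at least 50, when log2 of the value plus 1 was at least 0.5 above NTC with each hairpin, and when all 6 hairpin values exceeded all 3 NTC values. This gave 1020 gained peaks of the 72471 with that mean and of 75936 in all. The share gained was 1.41% of the peaks with that mean. The members were thus chosen by their differences from NTC in these libraries, which are given below as a description and without a test.

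Mediator is a large coactivator complex that carries signals from transcription factors to RNA polymerase II. MED1 is the subunit through which nuclear receptors and several other factors contact it, and MED1 is found in large amounts at enhancers, including the clustered ones called super-enhancers. Enhancers mostly lie away from start sites, in introns and between genes, and in ATAC-seq they appear as distal peaks. Promoters of widely used genes are usually rich in CpG dinucleotides and open in nearly all cells, while CpG-poor promoters tend to serve genes of particular cell types.

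Few gained peaks covered a promoter, and those that did lay mostly over CpG-poor sequence. Of 9310 promoter windows with a peak over at least 150 of their bases, 14 had a gained peak. These windows, from RefSeq on GRCm38.p6 (mm10), run from 250 bases before a start to 50 after it. The gained windows held a median of 3 CpG dinucleotides in 300 bases, against 22 over all 9310 windows and 21 in the 68 windows under peaks lost with both hairpins. No more than 7 CpG were found in 12 of the 14, or 85.7%, against 10.5% of all windows with a peak. Starts of lncRNA genes made up 7 of the 14, or 50% against 13.6%. The gained windows also lay under weaker peaks. Their median NTC mean was 237 normalized counts, against 1485 for all windows with a peak and 666 for windows under lost peaks. The AP-1 motif TGANTCA, which reads the same on both strands, was in 7 of the 14 windows and in 6.64% of all windows with a peak. The RUNX motif TGTGGT, searched on both strands, was in 6 against 12.2%, and the SP motif GGGCGG in 3 against 66.8%. The NF-Y motif CCAAT was in 3 against 40.6%, the TEAD motif GGAATG in 1 against 11.7%, and TATAAA in 2 against 5.97%. Motif shares vary with base composition, and no windows of matched CpG content or matched peak strength were compared. Over all 32851 promoters, with a median of 7 CpG, the shares were 7.81% for AP-1, 16.8% for RUNX and 35.7% for SP. For NF-Y, TEAD and TATAAA they were 37.4%, 14.7% and 13.6%. A match describes letters in these windows and is not a shown binding site. The 250 bases before the start are printed for 3 CpG-poor windows with TGANTCA and for Ccdc57, the window with most CpG, 19 in its 300 bases. All are from the minus strand, at chr11:100120578-100120827 for Krt13, chr7:110288399-110288648 for Gm32861, chr7:30924182-30924431 for Hamp2 and chr11:120932873-120933122 for Ccdc57. Capitals mark CG dinucleotides and TGANTCA.
Krt13: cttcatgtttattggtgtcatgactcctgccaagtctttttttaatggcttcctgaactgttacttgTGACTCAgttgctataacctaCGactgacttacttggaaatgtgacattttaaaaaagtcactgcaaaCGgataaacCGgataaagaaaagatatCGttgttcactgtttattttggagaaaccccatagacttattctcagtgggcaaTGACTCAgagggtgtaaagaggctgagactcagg
Gm32861: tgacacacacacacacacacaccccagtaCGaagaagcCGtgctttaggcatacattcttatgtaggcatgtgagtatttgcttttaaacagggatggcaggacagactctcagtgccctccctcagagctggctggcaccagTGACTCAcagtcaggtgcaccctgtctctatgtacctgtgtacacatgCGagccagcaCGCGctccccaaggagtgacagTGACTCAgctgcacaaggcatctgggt
Hamp2: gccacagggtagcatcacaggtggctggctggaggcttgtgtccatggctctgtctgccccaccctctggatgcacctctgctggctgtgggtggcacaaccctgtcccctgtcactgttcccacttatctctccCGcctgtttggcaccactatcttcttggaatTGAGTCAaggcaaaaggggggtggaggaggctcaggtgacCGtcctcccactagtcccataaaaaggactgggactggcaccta
Ccdc57: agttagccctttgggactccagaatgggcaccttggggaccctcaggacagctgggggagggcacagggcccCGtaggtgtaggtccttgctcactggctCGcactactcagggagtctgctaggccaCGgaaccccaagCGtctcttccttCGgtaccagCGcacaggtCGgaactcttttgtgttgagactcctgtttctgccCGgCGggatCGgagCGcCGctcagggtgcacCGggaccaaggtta
The printed stretch holds 2 matches of TGANTCA in Krt13 and Gm32861, 1 in Hamp2 and 0 in Ccdc57. It holds 4 CpG in Krt13, 5 in Gm32861, 2 in Hamp2 and 13 in Ccdc57.

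The peaks over these 4 promoters differed widely in strength. At Krt13, a keratin gene of stratified epithelia, normalized counts were 101, 128 and 132 in NTC, 173, 220.0 and 177 with #2, and 210.0, 211 and 223 with #4. At the lncRNA gene Gm32861 they were 1770.0, 1760 and 1635 in NTC, 2478, 2502 and 2921 with #2, and 2686, 2660.0 and 2358 with #4. At Hamp2, a gene of the hepcidin family, they were 122, 134 and 129 in NTC, 196, 187 and 181 with #2, and 256, 206 and 226 with #4. At Ccdc57 they were 197, 183 and 220.0 in NTC, 331, 309 and 365 with #2, and 428, 418 and 349 with #4. In each of them the hairpin libraries stood above the NTC libraries, as the rule requires, by between 0.55 and 0.99 on the log2 scale in the group means.

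The gains were mostly modest. The median difference from NTC was 0.69 on the log2 scale with #2 and 0.64 with #4, and 32 of the 1020 peaks reached 1 with both hairpins. The largest were 1.53 with #2 and 1.77 with #4. The median NTC mean was 158 normalized counts, which stood at 266 with #2 and 267 with #4. The median SD between replicates was 0.13 on the log2 scale in NTC, 0.13 with #2 and 0.12 with #4, which the rule keeps small beside the differences. Members just inside the limit were assigned to St3gal3, Xirp1 and Nme1, and peaks just outside it to Efnb2, Prkar1b and Emc3, all with a smaller difference of 0.50 after rounding. Applied in the other direction, the rule gave 894 lost peaks, or 1.23%. The balance between gained and lost depended on the scaling: with the deposited values 53.3% of the changed peaks were gained, with equal library totals 518 were gained and 1946 lost, or 21.0%, and with quantile normalization 1127 were gained and 628 lost, or 64.2%. Without NTC replicate 1 the count of gained peaks was 1543 and that of lost peaks 1562. Over the gained peaks that library stood at a median of 0.07 above the NTC mean on the log2 scale, against -0.01 and -0.05 in the other controls. Over the lost peaks it stood at -0.07, against 0.02 and 0.06. The reason for the higher counts was not tested.

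Reads in peaks ran from 34.8 to 53.7 M per library, and the median gained peak held 155 to 351.5 reads in a library. Pearson correlations of log2 values were 0.988 to 0.991 within groups and 0.970 to 0.982 between groups. The labels do not describe the cultures, so p-values below measure only the spread between these libraries. The hairpin target could not be checked, because RNA was not measured in these libraries. The peak at the Med1 start had 2114 ± 41.3 normalized counts in NTC, 2023 ± 143 with #2 and 1971 ± 73.1 with #4 (SD, n = 3). Of 7 epithelial and carcinoma markers, 2 had a peak at a gene end, Krt18 and Krt14, while Krt8, Krt19, Epcam, Cdh1 and Krt5 had none. Of 5 mesenchymal markers 4 had one, with 4492 normalized counts at the strongest, at Vim. Blood markers had a gene-end peak in 3 of 5, endothelial in 1 of 3, fat in 0 of 2 and neural in 3 of 3, and none of these peaks was gained. Summed over markers, gene-end values for blood ran from 2759 to 3003 in NTC, 2977 to 3106 with #2 and 2754 to 2988 with #4, and those for mesenchymal markers from 13426 to 13564, 12388 to 12742 and 13322 to 13509. Neural sums ran from 509.7 to 543 in NTC, 600.0 to 638 with #2 and 533 to 602 with #4, and epithelial and carcinoma sums from 439 to 570.3, 378 to 421 and 437 to 465. Endothelial sums ran from 167 to 193, 143 to 193 and 131 to 166. Neural sums were thus above NTC, and mesenchymal and epithelial sums below it, in the 3 libraries of #2. Their part in the gains was not tested.

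Peaks chosen in some of the libraries were also read in the others. The rule was applied to replicates 2 and 3 of each group, which chose 1810 peaks, and the differences were read in the 3 libraries numbered 1. There the median difference from NTC was 0.41 with #2 and 0.43 with #4, and 84.9% of the chosen peaks stood above NTC with both hairpins, against 34.3% of all 72390 peaks with the minimum mean. In the choosing libraries the medians were 0.72 and 0.62. With the libraries numbered 2 held out, 1146 peaks had medians of 0.65 and 0.56. With those numbered 3 held out, 967 peaks had medians of 0.77 and 0.55. In those readouts 90.9% and 89.97% of the chosen peaks stood above NTC with both hairpins. Both differences of a readout share 1 NTC library.

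Gained peaks were mostly distal. A peak was placed at a gene end when its centre lay within 1 kb of either end of a protein-coding gene, which held for 42 of the 1020, or 4.12%, against 16.5% of all 72471 peaks and 11.97% of lost peaks. Gene bodies held 565 (55.4%, against 45.7% of all peaks). The space within 50 kb of a gene held 303 (29.7%, against 27.1%), and 110 lay farther from any gene (10.8%, against 10.7%). The last 2 shares were thus near those of all peaks. The lack was on the start side: where strand was known, 13 of 7904 peaks at gene starts were gained (0.164%), and 21 of 1668 at the other end of a gene (1.26%). By distance to the nearest start in the promoter table, which does not cover all genes, 9 of 8168 peaks within 0.5 kb were gained (0.110%), while the highest share was 2.07%, at 50 to 100 kb. Lost peaks made up 0.661% within 0.5 kb and between 0.871% and 1.51% beyond it. These shares are descriptions of peaks and carry no test.

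**Figure D1:**
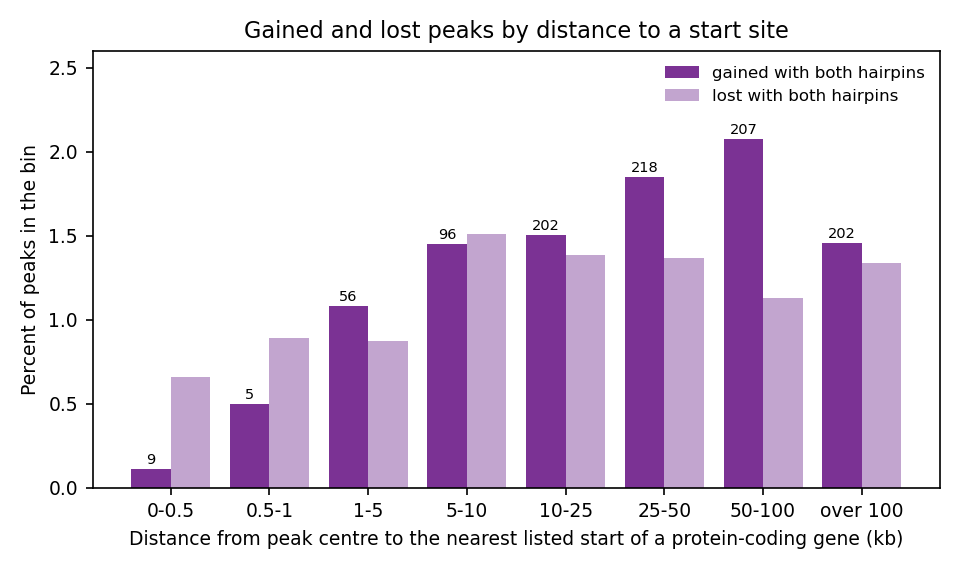
Percent of peaks with a mean of at least 50 that were gained (dark bars, with the number of gained peaks above) or lost (light bars) with both hairpins, by distance in kb from the peak centre to the nearest start site in the promoter table. The gained share runs from 0.110% within 0.5 kb to 2.07% at 50 to 100 kb.

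Weak and strong peaks were both among the gained. In 5 equal classes of the NTC mean, 312, 203, 200, 183 and 122 peaks were gained from the weakest to the strongest class, and 211, 404, 175, 72 and 32 were lost. The minimum mean bears on the weakest class. A peak with an NTC mean below 50 passes it only through higher hairpin values, so it can be gained but not lost. Without a minimum mean, 1062 peaks were gained and 989 lost in all. Away from gene ends, the strongest class held 118 gained and 4 lost peaks. These counts depended on scaling: with equal totals the strongest class held 23 gained and 9 lost peaks away from gene ends, and with quantile normalization 21 and 5. By chromosome, the gained share ran from 0.901% on chromosome 10 to 2.06% on chromosome 12.

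The peaks with the largest gains belonged to genes of varied roles. The gene named beside a peak is its assigned gene, the one it lies in or the nearest within 50 kb, and is not a tested target. The largest smaller difference was at chr8:83616659-83617160, beyond the end of Dnajb1, which encodes a co-chaperone of the Hsp40 family. It had 61.8, 68.2 and 67.6 normalized counts in NTC, 167, 213 and 184 with #2, and 356, 223 and 146 with #4. Both hairpin groups lay clear of NTC, and the #4 libraries spread over a wider range than the #2 libraries. The group means were 65.9 ± 3.56, 188 ± 23.3 and 242 ± 107 (SD, n = 3), which is 1.49 and 1.77 above NTC on the log2 scale. Among these large gains, the one weakest in NTC lay near Hs6st2, which encodes a heparan sulfate sulfotransferase, with 22.4, 33.2 and 21.2 in NTC, 56.2, 72.6 and 59.9 with #2, and 100, 75.1 and 70.1 with #4.

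Some other large gains, such as those at Ptprg and Bloc1s4, were more even across replicates. In Ptprg, which encodes a receptor tyrosine phosphatase, a peak had 200, 145 and 160 normalized counts in NTC, 381, 461 and 443 with #2, and 361, 407 and 372 with #4. Near Bloc1s4, a subunit of the BLOC-1 complex of lysosome-related organelles, the values were 188, 214 and 199 in NTC, 404, 438 and 465 with #2, and 418, 442 and 468 with #4. These groups were separated by wide gaps, and the hairpins differed by 0.02 on the log2 scale at Bloc1s4 (SE 0.10, limma adjusted p = 0.8935). In Kcnq1, a voltage-gated potassium channel gene, the differences from NTC were 1.16 with #2 and 1.18 with #4. A peak near Cd9, a tetraspanin gene, differed by 1.17 and 1.30. The gene-end peak of Ermard differed by 1.13 and 1.44, and peaks of Abtb2, Ifrd1 and Wdr11 by 1.12 to 1.23. These were less even with #4, with 339, 399 and 234 normalized counts at Ermard and 254, 169 and 132 at Abtb2. At Ifrd1 the #4 libraries had 178, 134 and 90.1, and at Wdr11 249.9, 153 and 117.

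**Figure D2:**
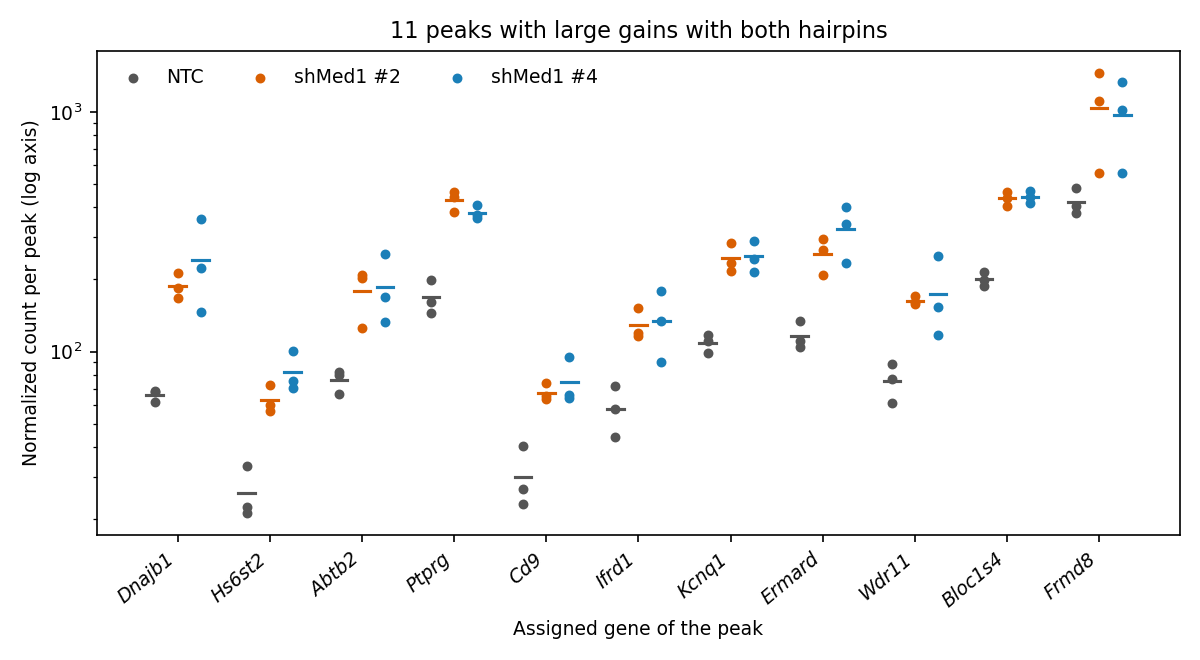
Normalized count per peak (log axis) in each library for 11 gained peaks with large differences from NTC with both hairpins, 1 per assigned gene; points are libraries and lines group means (n = 3). At Dnajb1 the NTC libraries lie between 61.8 and 68.2 and the hairpin libraries between 146 and 356.

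Among the strongest members in NTC were peaks in genes of cell shape and transcription. In Runx2, a RUNX transcription factor gene, a peak had 6000, 5384 and 5129 normalized counts in NTC, 7500, 8313 and 8525 with #2, and 7842, 7900.0 and 7951 with #4. In Pmepa1, a target and inhibitor of TGF-beta signalling, the values were 5615, 4991 and 4930 in NTC, 7757, 8312 and 9006 with #2, and 7844, 7790 and 7318 with #4. These peaks, with those of Myh9 (non-muscle myosin heavy chain), Nfatc2 (a calcium-regulated transcription factor) and Ppard (a fatty acid-sensing nuclear receptor), stood 0.51 to 0.74 above NTC on the log2 scale. Their gains were smaller with quantile normalization, from 0.24 at Myh9 to 0.48 at Ppard with #2, and from 0.25 at Nfatc2 to 0.39 at Ppard with #4, so none of the 5 would then meet the rule.

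The gained peaks over genes annotated as snRNA fell into 2 clusters on chromosome 11. The 4 gained peaks assigned to Tex14 lay over Rnu3b1, Rnu3b2, Rnu3b3 and Rnu3b4, genes of U3, the small nucleolar RNA that takes part in processing the ribosomal RNA precursor. The peak at Rnu3b2 had 1321, 1121 and 1069 normalized counts in NTC, 1979, 2133 and 2459 with #2, and 2644, 2252 and 2250.1 with #4, a difference of 0.90 and 1.03. The other 3 had NTC means of 2736 to 3229 and differences of 0.51 to 0.68. A peak over Rnu3a on chromosome 10, also a U3 gene, was not gained, with differences of 0.29 and 0.40. Peaks over the snRNA genes Rnu1a1 and Gm22068, assigned to Tex14 as well, were not gained either. At Rnu3b2 the hairpin groups overlapped each other, and #4 replicate 1 was the highest of the 9 libraries. A pair of peaks assigned to Rdm1 lay over the snRNA genes Gm24950 and Gm23971, with differences of 0.55 and 0.61 at Gm24950 and 0.55 and 0.64 at Gm23971. In all, 6 of 23 peaks over genes annotated as snRNA were gained and 0 lost, while 0 of 110 over tRNA genes were gained and 6 lost. Of 54 peaks over genes annotated as snoRNA, 0 were gained and 0 lost, and 10 stood above NTC with both hairpins. The median of the mean difference over both hairpins was 0.25 for snRNA, -0.16 for snoRNA and -0.23 for tRNA genes. With equal totals or quantile normalization 1 of the 23 met the rule. The copies within each cluster are nearly alike in sequence, and how reads that match several copies were counted is not given in the sources used here, so the values of single copies are uncertain.

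Beside these, a peak assigned to Frmd8 lay inside Neat1, the lncRNA gene whose transcript builds nuclear paraspeckles. It had 482, 379 and 406 normalized counts in NTC, 558, 1111 and 1455 with #2, and 1338, 1018 and 555 with #4. Within each hairpin the libraries were far apart, the lowest lying closer to NTC than to the highest of its own group. The means were 422 ± 53.3 in NTC, 1041 ± 453 with #2 and 970 ± 393 with #4 (SD, n = 3). The other 3 peaks of Neat1 were not gained, with differences between -0.23 and 0.66. Gained peaks overlapped lncRNA genes in 12.6% of cases, and all peaks in 11.8%.

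Gained peaks lay near each other. Another gained peak was within 50 kb for 308 of the 1020 (30.2%), while another lost peak was within 50 kb for 80 of the 894 lost peaks (8.95%). Within 5 kb the gained count was 167 (16.4%). Gained peaks also had more peaks of any kind around them. Any other peak with the minimum mean lay within 5 kb for 56.0% of gained, 38.9% of lost and 45.8% of all peaks. Of 964 pairs of peaks within 5 kb of each other with at least 1 gained, 133 had both gained (13.8%), and of 447 pairs with at least 1 lost, 4 had both lost (0.895%). Peaks that were not gained themselves also stood higher near a gained peak. Their median difference, as the mean of both hairpins, was 0.32 within 2 kb of a gained peak, 0.20 at 2 to 5 kb, 0.10 at 10 to 25 kb and -0.04 beyond 500 kb. Above NTC with both hairpins were 77.3% of those within 2 kb and 32.0% of those beyond 500 kb. The rule also decided, from their own values, that these neighbours were not gained, and reads of a wide open region can fall into several peaks, so their values are a description.

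**Figure D3:**
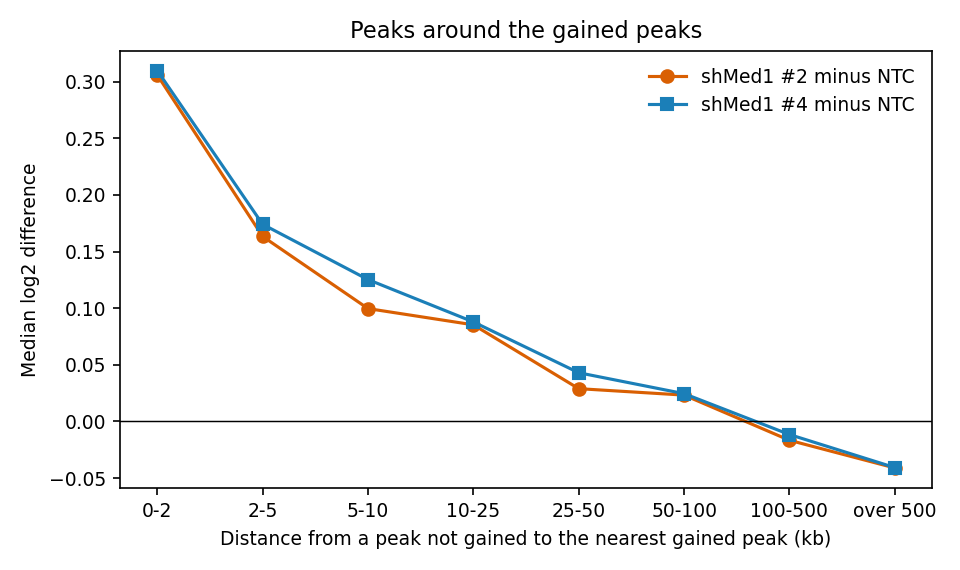
Median log2 difference from NTC of peaks that were not gained, by distance in kb to the nearest gained peak, for shMed1 #2 (circles) and #4 (squares). The medians are 0.31 within 2 kb with both hairpins and -0.04 beyond 500 kb.

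The gained peaks within 5 kb of each other formed 68 stretches, and their values were uneven among the #4 libraries. Of these, 23 held at least 3 gained peaks, 77 in all of the 79 peaks they span, over 1.74 to 10.46 kb. In 23 of the 23, the median of the stretch was higher in #4 replicate 1 than in #4 replicate 3, and in 21 of them #4 replicate 1 was the highest of the 9 libraries. Over the 167 peaks in stretches, the median above the NTC mean was 0.64, 0.81 and 0.91 on the log2 scale in the #2 libraries 1 to 3 and 1.13, 0.88 and 0.63 in the #4 libraries. Over the 712 gained peaks with no other within 50 kb, it was 0.61, 0.71 and 0.77 with #2 and 0.61, 0.63 and 0.61 with #4. The #4 libraries thus differed from each other in the stretches, with a median SD of 0.28, and much less at the lone peaks, with 0.11. The difference between #4 replicates 1 and 3 was at least 0.5 in 50.9% of the peaks in stretches, in 4.21% of the lone peaks and in 3.35% of all peaks. Left without #4 replicate 1, the rule still named 151 of the 167. What sets #4 replicate 1 apart was not tested.

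The longest stretch lay in Ifrd1, which encodes a transcriptional coregulator induced by growth signals and stress. At chr12:40205414-40215871, 6 of 7 peaks were gained. Over these 6, the median above NTC was 0.76, 1.01 and 0.97 with #2 and 1.29, 0.99 and 0.70 with #4. Its peak at chr12:40211478-40211979 had 43.9, 71.9 and 57.5 normalized counts in NTC, 152, 120 and 116 with #2, and 178, 134 and 90.1 with #4. The stretch beyond the end of Dnajb1 had the largest medians, 1.31, 1.53 and 1.46 with #2 and 2.29, 1.67 and 1.14 with #4. The stretch at the end of Zswim4 covered the microRNA genes Mir27a and Mir24-2, and its medians were 0.52, 1.11 and 1.30 with #2 and 1.29, 0.98 and 0.49 with #4. In Itga6, the alpha 6 integrin subunit of laminin receptors, the medians were 0.98, 0.88 and 1.00 with #2 and 1.30, 0.84 and 0.35 with #4. In Col5a1, a chain of fibrillar collagen V, they were 0.67, 0.61 and 0.83 with #2 and 1.01, 0.63 and 0.49 with #4.

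**Figure D4:**
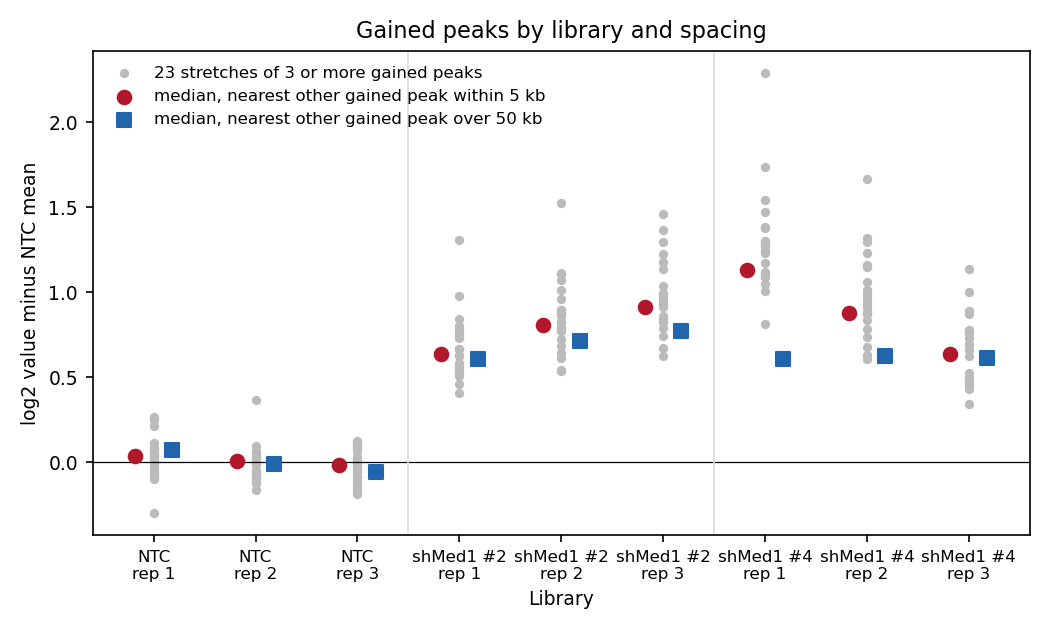
Log2 value minus the NTC mean by library (n = 3 per group). Grey points are the medians of the 23 stretches of at least 3 gained peaks, large circles the median of the 167 gained peaks with another within 5 kb, and squares that of the 712 with none within 50 kb. In #4 replicate 1 the circle stands at 1.13 and the square at 0.61, and in #4 replicate 3 at 0.63 and 0.61.

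In all, 721 of 15592 genes with a peak had a gained peak assigned to them, and 43 of these also had a lost one. Ifrd1 had 6 gained of 15 peaks and Prcp, a lysosomal carboxypeptidase gene, 6 of 18. Mad1l1 (a spindle checkpoint gene) had 5 of 23, Ralgps1 (an exchange factor for Ral) 5 of 27, Col5a1 5 of 55 and Nav2 (a neuron navigator gene) 5 of 56. None of these genes had a lost peak. The 5 gained peaks of Nav2 lay in the gene body. Its peak at chr7:48968991-48969492 had 541, 489 and 513 normalized counts in NTC, 957, 891 and 1009 with #2, and 821, 782 and 776 with #4. At Prcp, 3 of the 6 made a stretch beyond the end of the gene, with 167, 164 and 160 in NTC, 233, 272 and 356 with #2, and 428, 337 and 305 with #4 at chr7:92939001-92939502. Fzd7, a Wnt receptor gene, had 4 gained of 13 peaks, with differences of 0.50 to 0.93, on the side of its start.

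Gene lists held between 0% and 6.41% gained peaks, with 1.41% over all assigned peaks. Of 32 lists, 20 had more gained than lost peaks and 8 fewer, which depended on scaling, since with equal totals 6 had more gained and 23 more lost. The integrin list had 8 gained and 0 lost of 159 peaks, and 6 of the 8 were the stretches of Itga6 and Itga9. With equal totals it had 7 and 3. At chr9:118888570-118889071 in Itga9, which encodes an integrin alpha subunit, normalized counts were 100, 105 and 89.8 in NTC, 196, 206 and 241 with #2, and 340.1, 299 and 220.3 with #4. The list of fibrillar and basement membrane matrix had 8 gained and 5 lost of 247, with 5 of the 8 in Col5a1, and with equal totals 6 and 7. Heat shock genes had 4 gained and 1 lost of 87, and 3 of the 4 were the Dnajb1 stretch. These counts rest on few genes, with 4 of 19 integrin genes and 2 of 19 heat shock genes holding a gained peak, against 4.62% of all genes with a peak. A gene with more peaks has more chances to hold a gained one, which these shares of genes do not take into account. The 19 integrin genes had 159 peaks and the 19 heat shock genes 87, while all 15592 genes had 64737.

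Several lists of transcription factors held gained peaks. The list of small Maf, Nrf2 and Bach factors, which bind antioxidant and Maf response elements, had 5 gained and 1 lost of 78, in Mafk, Nfe2l3 and Bach1, 3 of 10 genes. In Mafk the values were 3074, 2859 and 2658 in NTC, 4210.0, 4706 and 5013 with #2, and 4376, 4325 and 4249 with #4. The AP-1 list had 3 gained and 0 lost of 83. At the end of Jun they were 896, 799 and 688 in NTC, 1025, 1297 and 1315 with #2, and 1743, 1525 and 1275 with #4. Near Atf3 the values were 285, 227 and 259 in NTC, 529, 499 and 568 with #2, and 428, 375 and 378 with #4. The hairpin libraries lay above NTC at all 3, as the rule requires, while #2 and #4 overlapped at Mafk and Jun and were apart at Atf3. RUNX genes had 3 gained and 0 lost of 102, 1 each in Runx1, Runx2 and Runx3, and the TEAD and Hippo list 5 and 1 of 191, among them Tead4 with differences of 0.96 and 0.67. Notch genes had 5 and 0 of 186, and axon guidance cues 8 and 3 of 227, in 7 of 25 genes. With equal totals the RUNX list had 0 gained and 3 lost, the Notch list 1 and 3, and the axon guidance list 6 and 6. The list of small Maf, Nrf2 and Bach factors then had 2 and 1, the AP-1 list 2 and 1, and the TEAD and Hippo list 4 and 1.

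Some lists had few gained peaks or none. Ribosomal protein genes had 2 gained and 10 lost of 181 peaks, and cell cycle genes 0 gained and 3 lost of 148. With equal totals these were 0 and 19, and 0 and 5. No gained peak was assigned to the gp130 and STAT3 list (117 peaks), mesenchymal regulators (92), the circadian clock (99) or blood cell markers (23). YAP targets had 2 gained and 1 lost of 219 and focal adhesion genes 5 and 4 of 428, which became 1 and 5, and 0 and 8, with equal totals. Among Mediator genes 2 of 137 were gained, in Med16 and Med13l, and 1 was lost, with equal totals 0 and 2, and the 2 peaks of Med1 itself were in neither set. Of the remaining lists, TGF-beta and BMP genes had 5 gained and 2 lost of 232, near Smad3 and Inhbb among others, and Wnt genes 5 and 4 of 190, with 4 of the 5 at Fzd7. Nuclear receptors had 5 and 2 of 274, and matricellular genes and proteases 4 and 3 of 194. With equal totals these 4 lists had more lost than gained peaks, with 2 and 4, 2 and 7, 2 and 6, and 1 and 5. Smad3 encodes a transcription factor downstream of TGF-beta receptors, and its peak differed from NTC by 0.73 with #2 and 0.72 with #4. Genes of receptor kinases and MAPK had 4 gained and 5 lost of 242, MAPK feedback 2 and 1 of 132, and chromatin and BET 4 and 2 of 207, and with equal totals these were 1 and 8, 0 and 2, and 1 and 4. Endothelial and fat markers had 2 and 0 of 52, both at Lep, and neural markers 1 and 0 of 60. NF-kappaB and inflammation had 1 and 3 of 137, the unfolded protein and amino acid stress response 1 and 1 of 88, and epithelial genes 1 and 1 of 129. These counts were read beside the 1.41% of all assigned peaks and carry no test.

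The hairpins were compared with each other at the gained peaks by limma over all peaks, a contrast that the rule did not use directly, although it asks for 0.5 with each. With an adjusted p under 0.05, 36 gained peaks were higher with #4 than with #2 (3.53%, against 8.48% of all peaks tested) and 119 were lower (11.7%, against 13.0%). The share lower with #4 was thus near that of all peaks, and the share higher with #4 was below it. Both shares are a description, since asking for 0.5 with each hairpin limits how they can differ. Among the 119 the median difference from NTC was 0.94 with #2 and 0.56 with #4, and among the 36 it was 0.61 and 0.97. Of the 119, 2 lay in stretches, and of the 36, 7. The counts turned on single libraries: without #2 replicate 3 they were 60 and 79, without #2 replicate 1 the 36 became 16, and without #4 replicate 1 or 2 it became 21. At an unadjusted p under 0.05 there were 254 in both directions.

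The smallest adjusted p-values between the hairpins were at peaks lower with #4. In Map3k4, a MAP kinase kinase kinase gene of the stress pathways, normalized counts were 189, 155 and 156 in NTC, 445, 480.3 and 521 with #2, and 235, 264 and 227 with #4. All #4 libraries lay between NTC and #2, with -0.99 for #4 minus #2 (SE 0.11, limma adjusted p = 5.485e-10). In Ndufa10, a subunit of respiratory complex I, they were 247, 283 and 267 in NTC, 635, 742 and 835 with #2, and 357, 383 and 435 with #4, a difference of -0.91 (SE 0.09, adjusted p = 1.99e-10). Peaks at Sdc3, a heparan sulfate proteoglycan gene, and Hspb7, a small heat shock protein gene, were lower by -0.57 and -0.54 (SE 0.07 and 0.06, limma adjusted p = 2.80e-09 and 6.79e-09).

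Of the peaks higher with #4, those with the smallest adjusted p are given. In Adh7, which encodes an alcohol dehydrogenase that acts on retinol, the values were 194, 185 and 211 in NTC, 264, 286 and 327 with #2, and 413, 432 and 452 with #4, a difference of 0.57 (SE 0.10, limma adjusted p = 3.02e-05). The 3 groups did not overlap. In Ski, a corepressor of SMAD proteins, #4 stood 0.46 above #2 (SE 0.10, limma adjusted p = 0.000282). Near Acsl3, an acyl-CoA synthetase gene, it was 0.67 above (SE 0.14, limma adjusted p = 0.000338), and near Ift27, of the intraflagellar transport complex, 0.59 above (SE 0.14, limma adjusted p = 0.00132). At the peaks of Jun and Atf3 described above, #4 minus #2 was 0.32 (SE 0.08, limma adjusted p = 0.00337) and -0.43 (SE 0.09, limma adjusted p = 0.000496).

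**Figure D5:**
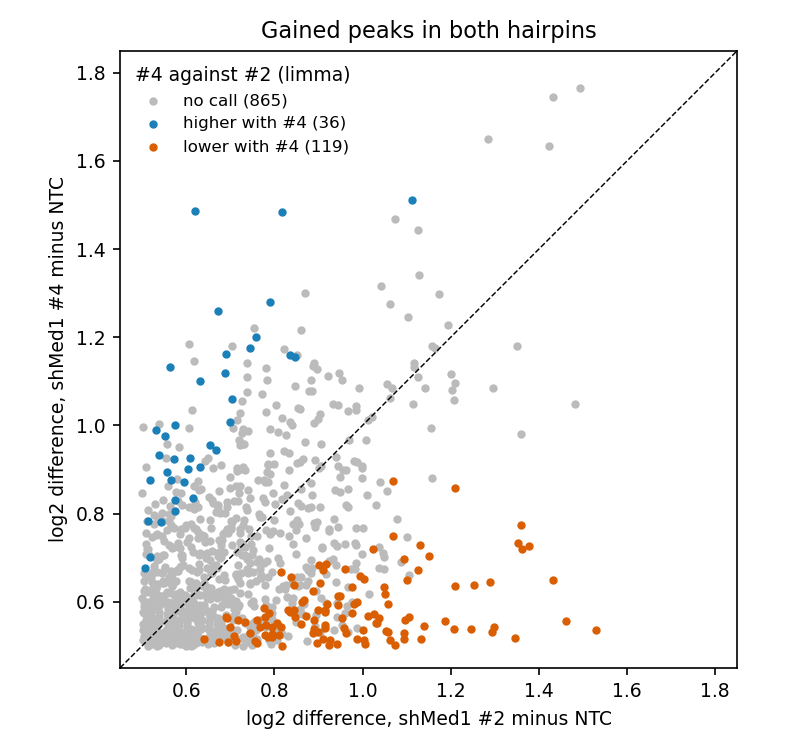
Log2 difference from NTC with shMed1 #4 (vertical axis) against that with #2 (horizontal axis) for the 1020 gained peaks; the dashed line marks equal differences. Colour shows the limma call for #4 against #2: 36 higher, 119 lower and 865 with no call.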

How the data were processed

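Bulk ATAC-seq was made from D2A1-d cells, 50000 per reaction per the labels' protocols, in 9 libraries (3 groups of 3). Per the submitters' processing notes, Trim Galore, BWA, MACS2 and featureCounts (Subread) were used with mm10 (GRCm38). No label or header gives their versions, how duplicates were handled or whether the transposase offset was applied. The deposited signal per peak is, by the name the authors gave the table, a DESeq2-normalized count. Its values were whole multiples of 1 step per library (100% within 0.01 of a read), from which size factors of 0.799 to 1.22 and the read numbers above were worked out. Each of the 75936 peaks spans 501 bases on chromosomes 1 to 19 and X; positions are copied unchanged, with no source saying if they count from 0 or 1. Sequences are shown for promoters, the regions held by the RefSeq table.

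The rule was applied to log2(value + 1), so differences understate those of low peaks. The 75930 peaks with a mean of at least 10 were tested with limma 3.58.1 with trend (R 4.3.3), two-sided, adjusted by Benjamini-Hochberg; no count test was run. The smallest values above 0 stand for 2 or 3 reads, so the worth of 1 read rests on the spacing of the values, and the read numbers on that estimate. The fit was tested on simulated data. Gene positions came from RefSeq on GRCm38.p6 (21900 protein-coding genes), and 772 of 773 list entries matched. Starts came from a promoter table without chromosome 18, so 995 gained peaks have a distance to a start.

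The members, the gene lists, the comparisons and the rule for named peaks were chosen with earlier results of these data known. Named were the 12 peaks with the largest smaller difference, the 6 largest at gene ends, the 5 with the highest NTC mean, the 8 genes with most gained peaks, up to 2 peaks per list, up to 4 each way in #4 against #2, 3 peaks on each side of the 0.5 limit and the peaks of Med1. Not all of them are printed, and a few results are not reported here. The promoter windows, the stretches, the strand of gene ends and the RNA genes under peaks, with Neat1, Gm24950 and Gm23971, were chosen after the values were seen. Alternatives covered scaling, pseudocount, filters, the limit, windows, the replicate block and leaving out each library.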

Additional observations from a re-analysis of the deposited data

Results flagged for a closer look

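Differences between the hairpins at peaks gained with both were flagged by the limma test of #4 against #2. The test called 36 gained peaks higher with #4 (3.53%, against 8.48% of all peaks tested) and 119 lower (11.7%, against 13.0%). Gained peaks were thus called no more often than peaks in general. The rule asks for at least 0.5 above NTC with each hairpin, which limits how the hairpins can differ, so these shares are a description. The peaks with the smallest adjusted p were, higher with #4, those of Adh7 (0.569 on the log2 scale), Ski (0.459), Acsl3 (0.666) and Ift27 (0.587). Lower with #4 were those of Ndufa10 (-0.906), Map3k4 (-0.993), Sdc3 (-0.566) and Hspb7 (-0.537). In all 8 the 3 libraries of each hairpin did not overlap, and all 8 stayed past the threshold in the 120 refits with other settings. The 8 were picked by this test and the refits used the same libraries, so both results largely follow from the choice.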

How the results depend on the processing

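The count of 1020 gained peaks was 518 with equal totals, with 1946 lost, 2269 at a limit of 0.4 and 460 at 0.6, and ran from 905 to 1543 when single libraries were left out. The 36 higher with #4 became 55 with quantile normalization and ran from 16 to 60 without single libraries, and the 119 lower ran from 79 to 150. The share at gene ends was 7.65% with a window of 2 kb, 2.25% with 0.5 kb and 1.41% for listed starts within 1 kb. The share with another gained peak nearby was 20.3% at 10 kb, 40.1% at 100 kb and 16.4% at 5 kb, and ran from 26.3% to 33.7% without single libraries. The held-out difference was 0.646 (#2) and 0.564 (#4) with libraries 2 held out and 0.773 and 0.545 with libraries 3. The causes were not tested. Settings for the 5 kb distance, listed starts, and the 2 shares under equal totals and without single libraries were added after seeing the data.

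Same-numbered libraries did not deviate together (correlations -0.0896 to 0.0225), so the numbers give no pairing; with the replicate block 34 gained peaks were higher and 113 lower. For 111 named peaks under 13 settings, 1424 of 1443 differences moved by less than the replicate SD, 19 moved by more and 0 changed sign. Reads per peak limit the weakest members, whose lowest count in a library was 21.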
